A study of Mus musculus with 13 samples.

Results

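The 10 genes described here present antigen to helper T cells through MHC class II or give the costimulatory signal that goes with it. They are the class II chains H2-Aa, H2-Ab1 and H2-Eb1, the peptide exchange chains H2-DMa and H2-DMb1, the invariant chain Cd74, the transactivator Ciita, the protease Ctss and the costimulatory ligands Cd80 and Cd86. They were chosen by name, for their role, and were found by their Entrez gene numbers among the 23019 genes that all 3 deposited count tables list. All 10 were found.

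Liver RNA was sequenced from 13 mice of strain C57, 3 months old, in 3 groups. The no BDL group held 5 mice labelled non treated, with no sham operation and no genotype named. Bile duct ligation (BDL) closes the duct that drains bile from the liver and causes cholestasis. The other two groups had BDL, and by the study's methods the animals were male and received a hairpin inhibitor or its control by tail vein on days 3 and 5 after ligation, and livers were taken on day 7. In 4 of these mice it was the control, miR-Ctrl, and in 4 it was anti-miR-873-5p, an inhibitor of the microRNA miR-873-5p, which represses the methyltransferase gene Gnmt, and these 4 are called the inhibitor group below. The no BDL mice had neither the operation nor an injection by their labels, so the 2 cannot be told apart in a comparison with them. The labels number each mouse, and p-values measure the spread between these mice.

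MHC class II molecules are pairs of an alpha and a beta chain that carry peptides from engulfed proteins to the surface of dendritic cells, B cells and macrophages, where CD4 T cells read them. The invariant chain CD74 fills the groove of a new class II molecule and guides it to endosomes. There cathepsin S cuts CD74 down to a short remnant, and the DM dimer swaps this remnant for a peptide. CIITA binds no DNA itself and switches on these genes together through the factors RFX, CREB and NF-Y on the X and Y boxes of their promoters. In the liver, Kupffer cells, infiltrating monocytes, dendritic cells and sinusoidal endothelium are known to carry class II, and interferon gamma raises it.

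The X and Y boxes are the elements through which these genes are known to be switched on together, and 3 of the promoters are shown, 2 with the letters of both boxes and that of H2-Aa with those of the Y box alone in the stretch printed. The sequences below are the 150 bases before the RefSeq transcription start (GRCm38.p6), 5′ to 3′ on the gene's strand, with capitals for matches, on either strand, to GATTGG, the core of the Y box, and ACNGATG, an end of the X box. H2-Aa lies on the minus strand at chr17:34287824-34287973, H2-Eb1 on the plus strand at chr17:34305717-34305866 and H2-DMb1 on the plus strand at chr17:34153041-34153190.
H2-Aa: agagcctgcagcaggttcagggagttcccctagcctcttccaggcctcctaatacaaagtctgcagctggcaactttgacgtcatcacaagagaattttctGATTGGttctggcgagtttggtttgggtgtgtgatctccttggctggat
H2-Eb1: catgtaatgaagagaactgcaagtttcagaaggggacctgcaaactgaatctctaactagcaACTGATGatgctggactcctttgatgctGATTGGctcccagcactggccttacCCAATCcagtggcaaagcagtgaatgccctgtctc
H2-DMb1: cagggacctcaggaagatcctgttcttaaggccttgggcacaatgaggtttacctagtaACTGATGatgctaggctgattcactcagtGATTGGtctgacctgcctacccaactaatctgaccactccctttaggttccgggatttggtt
In H2-Eb1 the X box letters began 88 bases before the start and the Y box letters 60 bases before it, a distance of 28 bases. In H2-DMb1 they began 91 and 62 bases before the start, 29 bases apart.

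Of the 32851 promoter windows in the RefSeq table, each 300 bases long with 250 before and 50 after the start, 16.1% held GATTGG and 9.85% held ACNGATG. Only 0.0639% held both on 1 strand in this order with 20 to 40 bases between their first bases, which is 21 windows, and those of H2-Eb1, H2-DMb1, H2-Eb2 and H2-DMb2 were among them. H2-Aa held GATTGG 49 bases before its start, and its single match to ACNGATG lay on the other strand, 232 bases before the start. Of the other members in that table, Ctss held ACNGATG 206 bases before its start and no GATTGG, H2-DMa held GATTGG in 1 of 2 windows, and Cd80 held neither. H2-Ab1, Cd74, Ciita and Cd86 were not searched. A match to these letters is a description of the sequence, and binding was not measured. Only these letters were searched, so a window without a match, as for the X box in H2-Aa, may still hold the box.

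**Figure D1:**
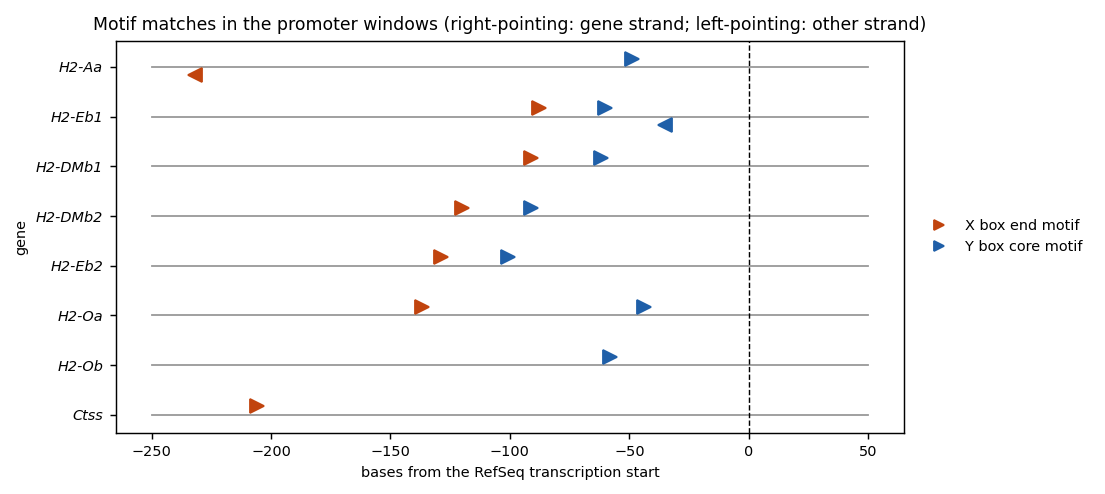
Positions of the motif matches in the promoter windows of 8 class II pathway genes, in bases from the RefSeq transcription start (dashed line). Orange triangles mark the X box letters and blue triangles the Y box letters, pointing right on the gene strand and left on the other strand. In H2-Eb1, H2-DMb1, H2-DMb2 and H2-Eb2 the X box letters lie 28 or 29 bases before the Y box letters.

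Values below are normalized counts, edgeR's counts per 1000000 reads after TMM scaling over all 13 mice, listed from mouse 1 upward. Total counts were 12185333 to 19689037 per mouse and table. Hepatocyte markers summed to 44370 to 133200 normalized counts, so hepatocyte transcripts were abundant in every liver. The table that compares both BDL groups holds 3 mice of each. miR-Ctrl mouse 3 and inhibitor mouse 2 are absent from it, and the study's methods name a filter for any outliers found by clustering without saying which mice it took. They are called the left-out mice below, and since the deposited tables differ in them, each comparison with no BDL is given with and without them. Both were also the lowest of their groups for the class II chains, so for these genes leaving them out raises the fold change and narrows the spread by the values themselves, and the fits without them are no independent evidence of a rise. In miR-Ctrl mouse 3 the neutrophil markers summed to 226, against 23.4 to 72.3 in the other miR-Ctrl mice.

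The 3 class II chain genes were higher in the 6 BDL mice of the table of both BDL groups than in every no BDL mouse, at 1.71 to 4.01 times the no BDL mean, and lower in the 2 left-out BDL mice than in every no BDL mouse. H2-Aa codes for the alpha chain of the I-A molecule (Entrez 14960, chromosome 17, 34282744 to 34287823 of GRCm38.p6). It had 21.4, 27.5, 33.7, 18.4 and 46.3 normalized counts in the no BDL mice. In the miR-Ctrl mice it had 50.4, 89.4, 10.2 and 115, and in the inhibitor mice 55.4, 4.78, 107 and 71.3. The third miR-Ctrl and the second inhibitor mouse were the lowest of all 13, at 0.345 and 0.162 of the no BDL mean, while the other 6 BDL mice did not overlap with no BDL.

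Its partner H2-Ab1, the I-A beta chain (Entrez 14961, chromosome 17, 34263227 to 34269418), had 17.7, 22.5, 23.7, 14.8 and 40.2 without BDL. The miR-Ctrl mice had 46.3, 68.9, 11.4 and 95.4 and the inhibitor mice 47.6, 4.78, 87.9 and 62.1. H2-Ab1 thus ordered the mice much as H2-Aa did, with miR-Ctrl mouse 4 and inhibitor mouse 3 highest and the same pair of mice lowest. H2-Eb1, the beta chain of the I-E molecule (Entrez 14969, chromosome 17, 34305867 to 34316674), had 19.6, 22.97, 29.4, 16.8 and 37.2 in no BDL. It had 46.7, 79.5, 9.66 and 96.3 in miR-Ctrl BDL and 56.3, 4.09, 95.5 and 60.9 in the inhibitor group. The alpha chain that would pair with it, H2-Ea, had 1 read in 1 of the 13 mice and 0 in the others. C57BL/6 mice are known to carry a deletion in the H2-Ea promoter and to make no I-E molecule, and the labels here give the strain as C57.

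With all mice of the tables, none of the 3 chains passed the test in either comparison with no BDL. For miR-Ctrl BDL against no BDL the log2 fold changes were 1.20 for H2-Aa (SE 0.54, adjusted p = 0.114), 1.25 for H2-Ab1 (SE 0.50, adjusted p = 0.0769) and 1.24 for H2-Eb1 (SE 0.52, adjusted p = 0.0880), each from a quasi-likelihood F test in edgeR and adjusted over all genes. For the inhibitor group they were 1.06, 1.13 and 1.14, with adjusted p = 0.255, 0.210 and 0.212. When miR-Ctrl mouse 3 was left out, all 3 chains rose in miR-Ctrl BDL, by 1.54, 1.58 and 1.58 (adjusted p = 0.00441, 0.00379 and 0.00216). When inhibitor mouse 2 was left out, they rose in the inhibitor group by 1.43, 1.49 and 1.51 (adjusted p = 0.00893, 0.00802 and 0.00396). Of the other fits that left out 1 mouse, that without no BDL mouse 5 called H2-Ab1 in miR-Ctrl BDL (adjusted p = 0.0436) and none called another chain in either comparison. With all mice, DESeq2's Wald test called H2-Ab1 and H2-Eb1 in miR-Ctrl BDL (adjusted p = 0.0355 and 0.0450), and scaling by library size called all 3 chains in both comparisons. That scaling also called 9360 of all 13072 genes higher in miR-Ctrl BDL and 10063 of 13130 in the inhibitor group. Its calls therefore say little about these chains in particular.

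**Figure D2:**
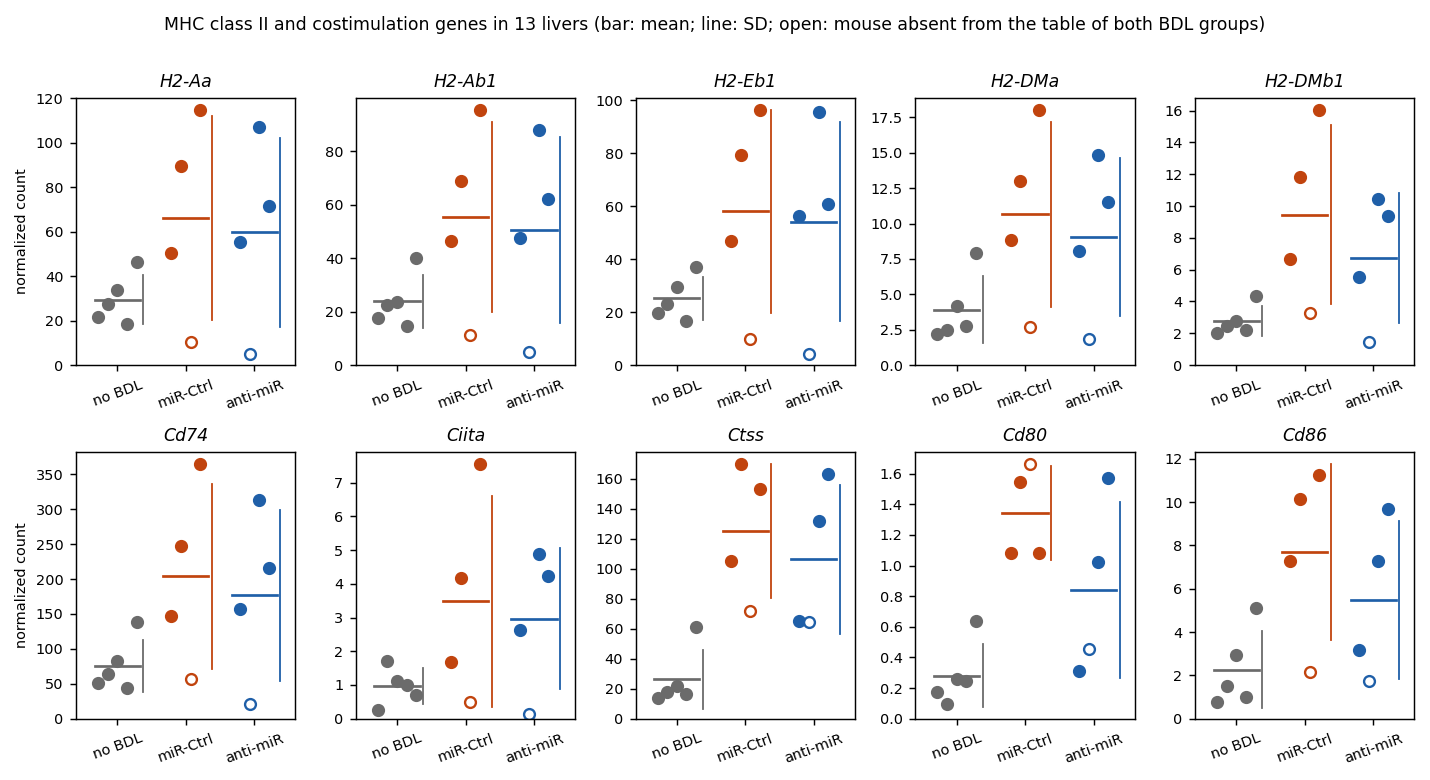
Normalized counts of the 10 genes (vertical axes, each from 0) in the mice of the no BDL (grey), miR-Ctrl BDL (orange) and anti-miR-873-5p BDL (blue) groups, with 5, 4 and 4 mice. Horizontal bars are group means and vertical lines the SD, and open circles are the 2 mice absent from the table of both BDL groups, which lie below every no BDL mouse for H2-Aa, H2-Ab1 and H2-Eb1 and above every one for Ctss.

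The DM chains, which load peptide onto class II, were higher in the same 6 BDL mice. H2-DMa (Entrez 14998, chromosome 17, 34119693 to 34139101) had 2.16, 2.48, 4.21, 2.79 and 7.95 normalized counts without BDL, 8.85, 13.04, 2.66 and 18.1 with miR-Ctrl and 8.06, 1.82, 14.8 and 11.5 with the inhibitor. No BDL mouse 5, at 7.95, came close to the lowest of those 6, at 8.06. H2-DMb1 (Entrez 14999, chromosome 17, 34153191 to 34160229) had 1.99, 2.48, 2.75, 2.22 and 4.37 without BDL, 6.68, 11.8, 3.25 and 16.1 with miR-Ctrl and 5.56, 1.44, 10.4 and 9.38 with the inhibitor. It was 1 of 3 members called in miR-Ctrl BDL whichever single mouse was left out.

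H2-DMb1 rose in miR-Ctrl BDL by 1.80 (SE 0.43, adjusted p = 0.00926), from 2.76 ± 0.944 (SD, n = 5) to 9.46 ± 5.65 (SD, n = 4). The log2 fold change of H2-DMb1 in the inhibitor group was 1.32 (adjusted p = 0.0771), and without mouse 2 of that group it rose by 1.63 (adjusted p = 0.00400). Of the 50-base windows of its transcripts, 22.7% also occur in the neighbouring gene H2-DMb2, and how reads from these were counted is not given in the sources used here. H2-DMa had log2 fold changes of 1.47 (SE 0.53, adjusted p = 0.0528) in miR-Ctrl BDL and 1.24 (SE 0.55, adjusted p = 0.133) in the inhibitor group. With the left-out pair set aside it rose in both, by 1.77 and 1.56 (adjusted p = 0.00670 and 0.0177).

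Cd74, the invariant chain (Entrez 16149, chromosome 18, 60803849 to 60812652), was the most abundant member per kilobase of exon by the mean of all 3 groups. It had 50.95, 63.8, 82.1, 43.6 and 138 normalized counts without BDL. The miR-Ctrl mice had 147, 247, 56.8 and 366, and the inhibitor mice 157, 20.7, 313 and 216. Mouse 2 of the inhibitor group was below every no BDL mouse, and mouse 3 of the miR-Ctrl group was within their range. Cd74 rose in miR-Ctrl BDL by 1.46 (SE 0.50, adjusted p = 0.0439), and it lost this call when any of no BDL mice 1 to 4 or miR-Ctrl mice 1, 2 or 4 was left out, with adjusted p up to 0.144. For the inhibitor group the log2 fold change was 1.26 (SE 0.61, adjusted p = 0.166), and 1.62 without mouse 2 (adjusted p = 0.0112).

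Ctss, the cathepsin that trims the invariant chain (Entrez 13040, chromosome 3, 95526786 to 95556405), was above every no BDL mouse in all 8 BDL mice, the 2 left-out mice included. It had 13.9, 17.5, 22.1, 16.2 and 61.1 normalized counts without BDL, where mouse 5 was far above the others. The values were 105, 169.8, 71.6 and 153 with miR-Ctrl and 64.9, 64.6, 132 and 163 with the inhibitor. Ctss rose by 2.28 in miR-Ctrl BDL (SE 0.46, adjusted p = 0.00434) and by 2.05 in the inhibitor group (SE 0.48, adjusted p = 0.0170). In the miR-Ctrl comparison it was called under every alternative tried. In that of the inhibitor group it was called under all but 2, the fits without inhibitor mouse 3 (adjusted p = 0.0511) and without mouse 4 (adjusted p = 0.0531). Ctss is also a general lysosomal protease of macrophages.

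Ciita (Entrez 12265, chromosome 16, 10480014 to 10531064) was scarce, with 2 to 126 reads per mouse. It had 0.259, 1.72, 1.12, 0.986 and 0.715 normalized counts without BDL, 1.69, 4.17, 0.499 and 7.55 with miR-Ctrl and 2.62, 0.152, 4.89 and 4.22 with the inhibitor. Its lowest value of all 13 mice was in inhibitor mouse 2, with 2 reads, and its highest in miR-Ctrl mouse 4, which was also the highest mouse for H2-Aa, H2-Ab1, H2-Eb1, H2-DMa, H2-DMb1, Cd74 and Cd86. The log2 fold changes against no BDL were 1.90 for miR-Ctrl (SE 0.69, adjusted p = 0.0544) and 1.68 for the inhibitor (SE 0.71, adjusted p = 0.115). Without the left-out mouse of each group Ciita rose by 2.24 and 2.06 (adjusted p = 0.00856 and 0.00777), the latter a difference between groups that did not overlap. In miR-Ctrl BDL, mouse 1 lay within the no BDL range.

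CD80 and CD86 on antigen presenting cells bind CD28 on T cells as the second signal. Cd80 (Entrez 12519, chromosome 16, 38457430 to 38495958) had few reads, 1 to 32 per mouse. Its normalized counts were 0.173, 0.0953, 0.258, 0.246 and 0.636 without BDL, 1.08, 1.55, 1.67 and 1.08 with miR-Ctrl and 0.312, 0.455, 1.02 and 1.57 with the inhibitor. The miR-Ctrl mice were all above the no BDL mice, and mouse 3, low for the class II chains, was the highest of them. Cd80 rose in miR-Ctrl BDL by 2.20 (SE 0.42, adjusted p = 0.00334). In the comparison of the inhibitor group with no BDL it was below the count filter and was not tested, and with all genes of at least 1 count kept the log2 fold change was 1.57 (SE 0.60, adjusted p = 0.0977).

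Cd86 (Entrez 12524, chromosome 16, 36568956 to 36666158) had 0.777, 1.52, 2.92, 0.986 and 5.09 normalized counts without BDL, 7.28, 10.1, 2.17 and 11.3 with miR-Ctrl and 3.19, 1.74, 7.30 and 9.67 with the inhibitor. In the latter group, mouse 1 was within the no BDL range as well as mouse 2. Cd86 rose in miR-Ctrl BDL by 1.79 (SE 0.58, adjusted p = 0.0367), a call that 2 of the 9 fits without 1 mouse kept, with adjusted p up to 0.0968. In the inhibitor group the log2 fold change was 1.31 (SE 0.61, adjusted p = 0.155) and without mouse 2 it was 1.59 (adjusted p = 0.0575), so that Cd86 passed in neither.

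In all, 5 of the 10 members were called higher in miR-Ctrl BDL than in no BDL, where 19.1% of the 13072 genes tested were, and 0 lower. Their median log2 fold change was 1.63, and that of all genes tested was -0.01. Without miR-Ctrl mouse 3, 10 of 10 were called higher, with 22.2% of all genes tested called higher. In the inhibitor group against no BDL, 1 of 9 tested members, Ctss, was called higher, where 13.1% of the 13130 genes were, and the members' median was 1.26 against -0.01 over all genes. Without mouse 2 of that group 8 of 9 were, beside 18.4% of all genes. Both comparisons share their 5 no BDL mice. Scaled by library size alone, without TMM, the median of all genes moved to 0.79 and 0.82 in these comparisons, the shares of calls that were higher from 53.4% to 97.1% and from 60.8% to 98.7%, and the members called to 10 and 9. Relative to the median of all genes, the members then lay at 1.23 to 2.31 and 1.10 to 2.10, close to the 1.21 to 2.29 and 1.06 to 2.05 with TMM.

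The direct comparison of the inhibitor group with miR-Ctrl BDL asks whether the inhibitor changed these genes in ligated livers. None of the 10 members was called, and neither was any of the 13746 genes tested by edgeR (0%), of which 863 had an unadjusted p under 0.05, while DESeq2's Wald test called 31 genes and 0 members. All 10 estimates were below 0, with a median of -0.20 against 0.01 over all genes, but 8 of the 10, all except H2-DMb1 and Cd86, turned above 0 when miR-Ctrl mouse 4, inhibitor mouse 1 or inhibitor mouse 4 was left out. H2-Aa had 78.00 ± 26.6 (SD, n = 3) normalized counts with the inhibitor and 84.8 ± 32.4 (SD, n = 3) with miR-Ctrl, a log2 fold change of -0.12 with a 95% interval of -0.92 to 0.67. Cd74 had 229 ± 78.7 (SD, n = 3) and 253 ± 109.5 (SD, n = 3), with -0.15 and an interval of -1.01 to 0.72. The most negative were Cd86, with -0.50 (-1.39 to 0.38), and H2-DMb1, with -0.45 (-1.27 to 0.37). For the remaining members the estimates were -0.09 (-0.81 to 0.62) for H2-Ab1, -0.07 (-0.77 to 0.64) for H2-Eb1, -0.22 (-0.93 to 0.49) for H2-DMa and -0.19 (-1.37 to 0.99) for Ciita. Ctss was at -0.25 (-1.05 to 0.54) and Cd80 at -0.33 (-1.54 to 0.89). A level 2-fold lower with the inhibitor is -1 on the log2 scale. It lies inside the intervals of H2-DMb1, Cd74, Ciita, Ctss, Cd80 and Cd86 and outside those of H2-Aa, H2-Ab1, H2-Eb1 and H2-DMa. These intervals hold for 3 mice a group, without the left-out mice, which were the lowest of their groups for the latter genes. Such a difference is therefore not excluded. With all 4 mice of each group, H2-Aa had 59.7 ± 42.6 (SD) with the inhibitor and 66.2 ± 45.8 (SD) with miR-Ctrl.

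Levels can be compared between genes per kilobase of exon. Without BDL, Cd74 had 53.4 ± 26.6 normalized counts per kilobase (SD, n = 5), H2-Aa 26.1 ± 9.82, H2-Ab1 19.6 ± 8.14, Ctss 19.3 ± 14.6 and H2-Eb1 15.1 ± 4.92. The ranges of these latter 4 overlapped over the mice. The DM chains were lower than all of these in range, with 1.97 ± 0.673 for H2-DMb1 and 1.47 ± 0.894 for H2-DMa, and Cd86, Ciita and Cd80 followed with 0.890 ± 0.704, 0.117 ± 0.0651 and 0.0760 ± 0.0563. In both BDL groups Ctss stood second after Cd74, with 92.0 ± 33.04 (SD, n = 4) in miR-Ctrl BDL and 78.2 ± 36.4 (SD, n = 4) in the inhibitor group, ahead of H2-Aa with 58.7 ± 40.6 and 52.9 ± 37.8, though within the spread between mice. The order of the other members was the same in all 3 groups.

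Of 19 further genes of the pathway, 15 were tested in miR-Ctrl BDL against no BDL and 8 were higher and 0 lower. The median of their log2 fold changes was 0.52. The largest were in Marchf1, whose ubiquitin ligase takes class II and CD86 off the surface, Ifi30, a lysosomal reductase that opens disulfide bonds of antigens, and Lgmn, a lysosomal endopeptidase. Marchf1 rose by 2.12 (adjusted p = 0.00212), Ifi30 by 1.96 (adjusted p = 0.00146) and Lgmn by 1.96 (adjusted p = 0.00125). All 3 also rose in the inhibitor group, by 1.67, 1.44 and 1.54 (adjusted p = 0.0210, 0.0295 and 0.0147). In both left-out mice Lgmn and Marchf1 lay above every no BDL mouse, as Ctss did. Lgmn had 29.5, 37.5, 47.8, 34.8 and 87.1 without BDL, 138, 224, 188 and 173 with miR-Ctrl and 81.9, 112, 149 and 196 with the inhibitor. Marchf1 had 4.00 in miR-Ctrl mouse 3 and 2.50 in inhibitor mouse 2, against 0.858 to 2.46 without BDL. Ifi30 had 40.6 and 21.2 in these mice, the lowest of their groups, and the latter was within the 8.72 to 25.75 of the no BDL mice.

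The other 5 that rose in miR-Ctrl BDL were H2-DMb2, by 1.64 (adjusted p = 0.0189), the cathepsins Ctsd, by 0.72 (adjusted p = 0.00558), Ctsb, by 0.61 (adjusted p = 0.0436), and Ctsl, by 0.69 (adjusted p = 0.0487), and the NF-Y subunit Nfya, by 0.51 (adjusted p = 0.00455). Ctsl had 682, 623, 1392 and 698 normalized counts in the miR-Ctrl mice and 589, 1595, 655 and 561 in the inhibitor mice, against 562, 435, 545, 472 and 648 without BDL. Its highest values were in the same 2 mice that were lowest for H2-Aa, and it was no longer called without miR-Ctrl mouse 3, at 0.35 (adjusted p = 0.0734). In the inhibitor group 4 of 16 tested genes were higher, Ctsd by 0.70 (adjusted p = 0.0102) beside the 3 above, and without mouse 2 it was 7 of 17, which added H2-DMb2, Ctsb and Nfya.

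Of the DNA-binding factors that CIITA works through, Nfya was thus the one that passed with all mice. In miR-Ctrl BDL and in the inhibitor group against no BDL, Rfx5 had log2 fold changes of 0.45 and 0.18, Rfxap -0.27 and -0.11, Rfxank 0.42 and 0.01, Creb1 0.05 and 0.12, Nfyb -0.39 and -0.55 and Nfyc -0.11 and 0.01. None of these 6 passed with all mice, and without miR-Ctrl mouse 3 Rfx5 rose by 0.62 (adjusted p = 0.0285). Ctsh, another lysosomal cathepsin, had -0.07 and -0.03. H2-Oa and H2-Ob, which form the DO dimer that restrains DM in B cells, had 0 to 14 and 0 to 18 reads per mouse, and both were at 0 in inhibitor mouse 2. H2-Ob had log2 fold changes of -0.16 in miR-Ctrl BDL without mouse 3 (adjusted p = 0.725) and -0.38 in the inhibitor group (adjusted p = 0.672), and against no BDL H2-Oa was tested only without inhibitor mouse 2, at 1.41 (adjusted p = 0.0529). H2-Eb2 had 0 to 4 reads per mouse and was not tested.

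Of 12 further costimulation genes, 4 were tested against no BDL in miR-Ctrl BDL and 3 were higher. Icosl, the ligand of ICOS, rose by 2.34 (adjusted p = 0.00678), from 1.21, 0.191, 1.12, 0.740 and 2.46 normalized counts to 7.40, 6.97, 2.41 and 6.24. Cd274, which codes for the inhibitory ligand PD-L1, rose by 2.00 (adjusted p = 0.0106) and Cd40, the receptor through which helper T cells license these cells, by 1.74 (adjusted p = 0.0325). In the inhibitor group Icosl and Cd40 rose by 2.16 and 1.64 (adjusted p = 0.0307 and 0.0478), while Cd274 had 0.56 (adjusted p = 0.448). The direct difference of both BDL groups in Cd274 was -1.19 (adjusted p = 0.781), and 1 mouse, miR-Ctrl mouse 4 with 22.9, stood above the 5.84 to 10.4 of the other miR-Ctrl mice. On the T cell side, Cd28 had 0 to 23 reads per mouse, Ctla4 0 to 2 and Icos 3 to 33.

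The MHC class I pathway, which presents to CD8 T cells, had 2 of 14 genes higher in miR-Ctrl BDL (median of the log2 fold changes 0.32) and 1 of 14 in the inhibitor group (0.05). Without the left-out mice it was 5 and 0 of 14. H2-D1, a class I heavy chain, rose in both, by 0.89 and 0.66 (adjusted p = 0.00546 and 0.0491), though not in the inhibitor group without mouse 2 (adjusted p = 0.0668). Tapbp, the tapasin gene, rose in miR-Ctrl BDL, by 0.91 (adjusted p = 0.00855). The peptide transporter gene Tap1 and the immunoproteasome gene Psmb9 had their lowest values of the 13 mice in the 2 left-out mice, with 20.3 and 17.8 for Tap1, where the other 11 had 29.3 to 47.1 without BDL and at least 39.5 with it. H2-K1 was not low in them, at 1861 and 2160 against 1426 to 2021 without BDL.

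In the interferon gamma pathway 6 of 9 tested genes were higher in miR-Ctrl BDL (median of the log2 fold changes 1.10) and 3 of 9 in the inhibitor group (0.54). The largest were Socs1 and Socs3, feedback inhibitors of cytokine signalling, which rose by 3.56 and 2.82 in miR-Ctrl BDL (adjusted p = 0.0225 and 0.0100), and the receptor chain Ifngr1, which rose by 1.42 and 1.34 in the 2 comparisons (adjusted p = 0.000415 and 0.00285). Without miR-Ctrl mouse 3 Socs1 had 2.27 (adjusted p = 0.0563) and 8 of 9 genes were higher. Socs3 had 267.6 normalized counts in that mouse and 21.79, 55.03 and 52.05 in the other miR-Ctrl mice, against 5.05 to 23.45 without BDL. Its miR-Ctrl mean was 99.1 with that mouse and 42.96 without it. Ifng itself had 0 to 3 reads per mouse.

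Markers of the cells that carry class II moved with it in part. In bulk liver RNA, fewer cells of a type and less RNA per cell cannot be told apart. The 5 monocyte markers were all higher in miR-Ctrl BDL and 4 of 5 in the inhibitor group. Of 11 macrophage and Kupffer cell markers 8 and 1 were higher, and 9 and 4 without the left-out mice. Of the 5 general leukocyte markers 5 and 4 were higher. Monocyte markers summed to 8.54 to 25.8 normalized counts without BDL, to 69.7, 95.8, 27.3 and 112 in the miR-Ctrl mice and to 46.1, 20.02, 91.2 and 103 in the inhibitor mice. The left-out mice had the lowest sums of their groups and yet lay at or above 1.46 times the no BDL mean, when their H2-Aa lay at 0.345 and 0.162 of it. Macrophage markers summed to 155 to 894 without BDL, to 954, 1979, 846 and 1521 with miR-Ctrl and to 563, 596, 1041 and 1726 with the inhibitor. Both sums lay above the no BDL mean in all 8 BDL mice. The macrophage sums of the left-out mice and of inhibitor mouse 1 were still within the no BDL range. So was the monocyte sum of inhibitor mouse 2. Not every single marker lay above the no BDL mean in the left-out mice. Marco had 253 and 129 there, against 2.50 to 48.9 without BDL. Clec4f, a Kupffer cell marker, had 46.7 and 56.8, within the 38.1 to 171 of the no BDL mice, and the monocyte marker Ly6c2 had 1.14 in inhibitor mouse 2, below the 1.48 to 3.02 without BDL.

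The largest rises in miR-Ctrl BDL were in Marco, by 3.89, Cd5l, by 2.01, and Adgre1, by 2.00, among the macrophage markers (adjusted p = 0.00682, 0.0210 and 0.0117), and in Cx3cr1, by 3.90, Ccr2, by 3.14, and Fcgr1, by 2.35, among the monocyte markers (adjusted p = 0.00210, 0.00450 and 0.00640). Among the leukocyte markers they were in Cd53, by 2.12, Coro1a, by 2.10, and Cd52, by 1.96 (adjusted p = 0.00320, 0.000854 and 0.00208). None of the macrophage, monocyte or general leukocyte markers was at 0 in any mouse. Of 8 hepatocyte markers 4 were lower in miR-Ctrl BDL, led by Ttr with -2.13, Serpina1c with -1.88 and Cps1 with -0.94 (adjusted p = 0.000212, 0.000454 and 0.0126), and 2 in the inhibitor group, and their sum was lower in every BDL mouse than in every no BDL mouse. The part of these cells in the result was not tested.

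Of 10 dendritic cell markers 5 were tested and 2 were higher in miR-Ctrl BDL, Itgax by 2.30 and Batf3 by 1.59 (adjusted p = 0.00427 and 0.00239), and Itgax is also found on macrophages. In the inhibitor group 1 of 5 was higher, Itgax by 2.07 (adjusted p = 0.0281). Without the left-out mice it was 2 of 5 in miR-Ctrl BDL and 4 of 7 in the inhibitor group. In miR-Ctrl BDL with all mice Xcr1 and Clec9a, markers of cross-presenting dendritic cells, had log2 fold changes of -0.55 and -0.12. With all mice, 3 of 5 tested dendritic cell markers had a log2 fold change above 0 in miR-Ctrl BDL and 4 of 5 in the inhibitor group. The summed dendritic cell markers were 8.30 to 12.1 without BDL, 8.57 to 24.8 with miR-Ctrl and 7.58 to 21.1 with the inhibitor, and 1 to 4 markers were at 0 in 3 of the BDL mice. The summed level was above the no BDL range in 3 mice of each BDL group, and below or within it in the left-out mice. Part of this was Itgax, with 0.657 to 1.43 without BDL. It had 6.08, 7.98, 1.58 and 3.42 with miR-Ctrl and 4.44, 0.531, 5.61 and 5.60 with the inhibitor. The sum is thus not specific to dendritic cells.

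B cell markers summed to 5.88 to 9.10 without BDL, 2.41 to 5.90 with miR-Ctrl and 2.43 to 6.68 with the inhibitor, and none was called higher in any comparison. With all mice 0 of 2 tested markers were lower in miR-Ctrl BDL and 1 of 3 in the inhibitor group, and without the left-out mice 1 of 4 and 1 of 3. The B cell marker Ms4a1 had 0 to 12 reads per mouse and was at 0 in 3 of the 8 BDL mice. The 2 left-out mice had the lowest B cell sums of all 13, with 2.41 and 2.43, and the lowest dendritic cell sums of their groups, with 8.57 and 7.58. Sinusoidal endothelium markers summed to 122 to 181 without BDL, 104, 173, 51.04 and 136 with miR-Ctrl and 120.3, 93.4, 122 and 185 with the inhibitor, and in each BDL group the left-out mouse was the lowest. The left-out mice were thus the lowest of their groups for the dendritic cell, B cell and sinusoidal endothelium sums, and also for the T cell sum, at 0.518 and 0.451 of the no BDL mean.

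T cell markers had 0 of 4 tested genes higher and 1 lower in miR-Ctrl BDL, Cd4 with -2.79 (adjusted p = 0.00139), and 0 of 3 called in the inhibitor group, neutrophil markers 3 of 4 higher in both, and cholangiocyte markers 6 of 7 higher in both. In miR-Ctrl BDL the neutrophil markers S100a9, S100a8 and Csf3r rose by 5.02, 5.01 and 2.01 (adjusted p = 0.00714, 0.00635 and 0.00155), and the cholangiocyte markers Spp1, Krt7 and Krt19 by 3.77, 3.24 and 3.19 (adjusted p = 0.000411, 0.000102 and 0.000130). These values include miR-Ctrl mouse 3, whose neutrophil sum was far above the others. The median log2 fold change of the tested neutrophil markers was 3.51 with that mouse and 2.68 without it. Of the sinusoidal endothelium markers only Oit3 was lower in miR-Ctrl BDL, with -1.22 (adjusted p = 0.0184), and only Kdr in the inhibitor group, with -1.27 (adjusted p = 0.0385).

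**Figure D3:**
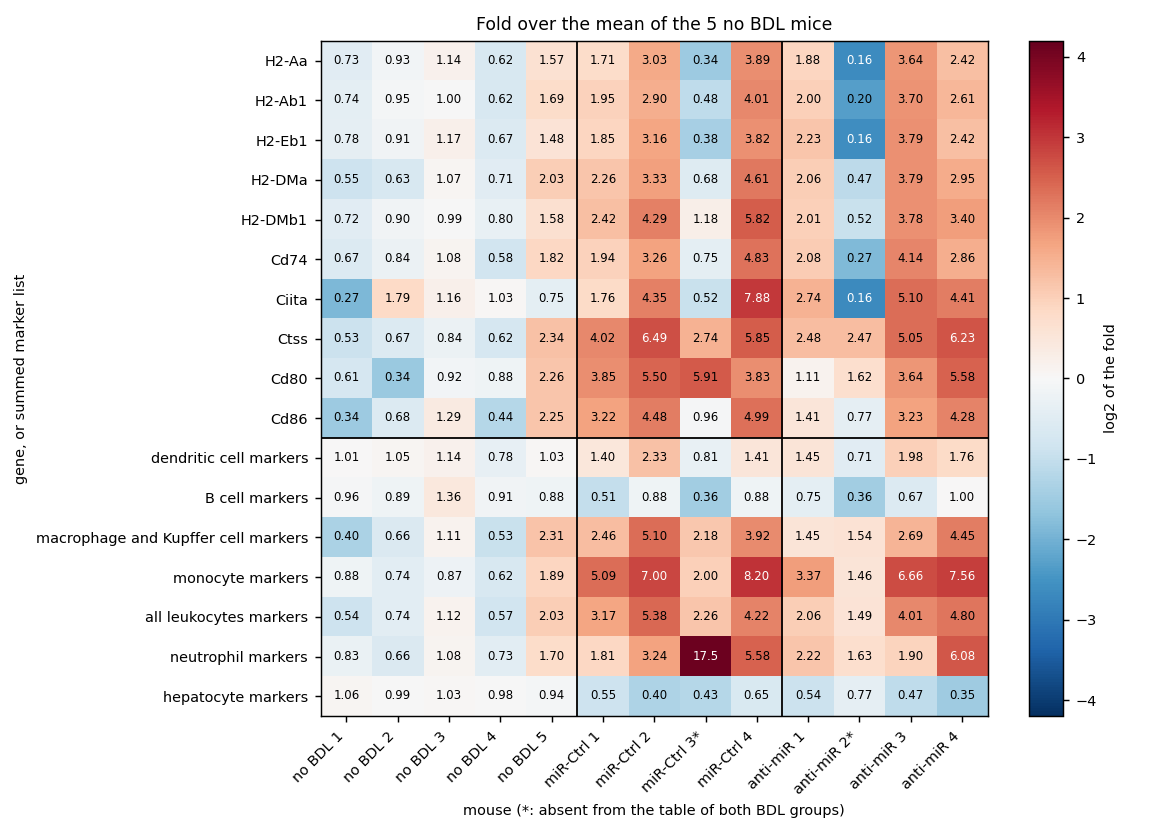
Fold of each mouse over the mean of the 5 no BDL mice for the 10 genes (above the line) and for the summed markers of 7 cell types (below it), coloured on a log2 scale from blue (lower) to red (higher), with the fold written in each cell. The left-out mice, miR-Ctrl 3 and anti-miR-873-5p 2 (asterisks), are blue for the class II chains, at 0.48 or less, and red for Ctss and the macrophage markers, at 1.54 or more.

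Likeness over the 13 mice to the mean profile of H2-Aa, H2-Ab1, H2-Eb1, H2-DMa, H2-DMb1 and Cd74 was measured as the root mean square difference of log2 normalized counts (plus 1), each centred on its mean over the mice. The 6 themselves were at 0.139 for H2-Ab1, 0.156 for Cd74, 0.247 for H2-Eb1, 0.255 for H2-Aa, 0.286 for H2-DMa and 0.374 for H2-DMb1. Ciita and Cd86 were further off, at 0.467 and 0.525, and Cd80 and Ctss furthest, at 0.947 and 0.965. Among 12547 other genes that averaged 10 counts or more, those near it included Epsti1 at 0.384, Lst1 at 0.406, Gbp8 at 0.411 and Ppfia4 at 0.453. Epsti1 had 1.04, 1.24, 2.23, 0.822 and 3.90 normalized counts without BDL, 6.20, 6.91, 1.25 and 9.05 with miR-Ctrl and 3.62, 0.758, 5.73 and 8.74 with the inhibitor. The 6 genes are part of the mean they are compared with, which brings them nearer to it. Adding 1 before the log narrows the profiles of scarce genes such as Cd80 and Ciita, so their distance depends on their level too. These profiles share their libraries and their scaling, and the order is a description.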

How the data were processed

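RNA of 13 livers was sequenced. Per the labels and the study's methods, the authors made TruSeq RNA v2 libraries, read 50 nt from 1 end on a HiScanSQ, processed the reads with CASAVA 1.8.2, FastQC and Trim Galore and mapped them to mm10 with TopHat. They deposited whole-number counts per Entrez gene in 3 tables, 1 for each comparison, without normalization, and used DESeq2 themselves. The program and annotation behind the counts are not given in the sources used here.

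The software was edgeR 4.0.16 and DESeq2 1.42.0 under R 4.3.3, and Python 3.11.15 with matplotlib 3.10.9. For each table, genes were kept by filterByExpr, scaled by TMM and compared with edgeR's quasi-likelihood F test, with Benjamini-Hochberg adjustment over all genes tested and a threshold of 0.05. Standard errors are the log2 fold change divided by the root of F, and 95% intervals use the test's degrees of freedom. Groups were taken from the labels. Normalized counts used edgeR's cpm on the 22246 genes whose counts are identical between tables, which leaves Socs1, Ly6g, Lck, Spp1 and Cps1 out of the values and sums by mouse, not out of the tests. The test was checked on simulated counts. Positions and promoters are from RefSeq (GRCm38.p6), and 50-base windows from GENCODE M21. The members and gene lists were chosen with earlier results of these data known. All members are named, with every further pathway gene, the 3 largest passing changes in miR-Ctrl BDL of the other pathway lists, markers that bear on a result and the genes nearest in profile, except for a few items that are not reported here. Counts for marker lists without the left-out mice were an alternative added after seeing the data.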

Additional observations from a re-analysis of the deposited data

Results flagged for a closer look

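Dixon's test at 95% was run on the highest and lowest mouse of each group for the 10 members, 10 marker sums and the sum of 6 class II genes. Of 63 such groups of 4 or 5 mice, 5 were picked out, and chance alone picks out about 1 in 20. The highest Ctss of the no BDL mice, 61.12 normalized counts in mouse 5, was far from the next, 22.06. The monocyte markers of the same mouse summed to 25.83, with 12.09 next. The highest B cell sum without BDL was 9.101, in mouse 3, with 6.391 next. In the anti-miR-873-5p group the highest neutrophil sum was 78.67, in mouse 4, with 28.74 next. In the miR-Ctrl group the highest T cell sum was 9.294, in mouse 4, with 4.575 next. The low class II values of mouse 3 of the miR-Ctrl group and mouse 2 of the anti-miR-873-5p group were not among these.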

How the results depend on the processing

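Against no BDL no member changed direction under any alternative that gave a value. In miR-Ctrl BDL, 5 members were called, and 10 with library size scaling, 9 with DESeq2's Wald test, 9 at an adjusted p of 0.1, 10 without the left-out mouse and 3 to 10 when each mouse was left out in turn, 3 without any of no BDL mice 1 to 4 or miR-Ctrl mice 1, 2 or 4. In anti-miR-873-5p BDL 1 was called, and 9, 2, 2 and 8 in the same order, with 0 to 8 when each mouse was left out, 0 without mouse 3 or mouse 4 and 2 without no BDL mouse 5. Genes called in all went from 4666 to 9635 of 13072 and from 2823 to 10194 of 13130 with library size scaling, and 2823 became 1261 to 4317 when single mice were left out of the anti-miR-873-5p comparison. The shares of all genes called higher were 19.1% and 13.1% with all mice, and 22.2% and 18.4% without the left-out mouse. Member calls thus rose together with calls over all genes in these settings. No such share is given here for the Wald test or the adjusted p of 0.1. DESeq2's size factors, both count filters and 1 fit of all 13 mice kept the member counts within 1.5 times. Between both BDL groups 0 members were called in every setting, DESeq2 called 31 genes to edgeR's 0, and the signs did not hold. Leaving out single mice, H2-Aa ran from -0.43 to 0.15, H2-Ab1 from -0.36 to 0.18, H2-Eb1 from -0.34 to 0.16, H2-DMa from -0.44 to 0.058, Cd74 from -0.44 to 0.21, Ciita from -0.58 to 0.41, Ctss from -0.54 to 0.04 and Cd80 from -0.88 to 0.072, with values above 0 without miR-Ctrl mouse 4 or anti-miR-873-5p mouse 1 or 4. The labels do not say that equal mouse numbers mark related mice, the deviations of such mice correlated from -0.20 to 0.35, and a replicate block gave 4, 1 and 0 members. The block fit used only mouse numbers present in both groups, so it left out no BDL mouse 5. Between both BDL groups it kept only mice 1 and 4 of each, too few for its 0 to decide anything. With 3 to 5 mice a group, Ciita had the widest interval of the members in both comparisons with no BDL. Between both BDL groups Cd80, Ciita and Cd86 had the widest. Few reads did not always go with a wide interval, since Cd80 had the smallest SE of the members in miR-Ctrl BDL, 0.42.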
